A study of Homo sapiens with 2 samples.

Results

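Molecular chaperones were measured in KYSE-170, a cell line of human oesophageal squamous carcinoma, after transfection with an oligoribonucleotide for miR-210 or with one called ncRNA, whose sequence the labels do not give. The 66 genes described here are the heat shock proteins of the HSPA, HSPB, HSPD, HSPH and HSP90 families, the DNAJ proteins, the TCP1 and CCT chaperonin subunits, and the factors HSF1 and HSF2. They were chosen by gene symbol alone, though with earlier results of these data known, out of 12445 genes named on the array. They were represented by 70 of its 24267 probes. Both groups were cultures of the same line in medium with 5% serum, transfected with the same reagent, and each was read on 1 Cy5-labelled array (Toray) made from 500 ng of total RNA. With 1 array per group there is no replicate error and no test, and every value below is a single measurement.

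Chaperones bind unfolded or partly folded proteins and help them reach, or return to, their folded form. Hsp70 proteins do this in cycles of ATP hydrolysis, which J proteins (the DNAJ genes) start by bringing the substrate and which Hsp110 proteins reset by exchanging the nucleotide. Hsp90 acts later, on kinases, receptors and other clients that are nearly folded, while the barrel-shaped chaperonins, CCT in the cytosol and HSPD1 in mitochondria, enclose their substrates. Under heat or other protein-damaging stress the factor HSF1 binds heat shock elements in promoters of many of these genes, and stress in the endoplasmic reticulum acts on HSPA5 and its partners through other elements. Tumour cells commonly carry high chaperone levels. The microRNA miR-210 is induced by hypoxia through HIF.

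The mature miR-210 sequences of RefSeq are shown because they define the treatment, with the seed (bases 2 to 8) in capitals. The labels do not say which arm the transfected oligoribonucleotide carried.
hsa-miR-210-3p: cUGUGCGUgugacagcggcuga
hsa-miR-210-5p: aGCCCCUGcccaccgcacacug
The arms lie on the minus strand of GRCh38.p14, at chr11:568112-568133 and chr11:568150-568171, and their seeds differ.

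Promoter windows of RefSeq (GRCh38.p14, 250 bases before to 50 after a gene's start) were found for 57 of the 66 genes, with the probe named HSPCA looked up as HSP90AA1. A heat shock element of 3 units, searched on both strands as the units GAA, TTC and GAA with any 2 bases between them (on the other strand TTC, GAA and TTC), was present in a window of 6 of these 57 genes (10.5%): HSP90AA1, HSP90AB1, HSPA8, HSPD1, DNAJA1 and DNAJB6. Among all 27305 genes with a window the share was 0.608%, and among all 35116 windows, since some genes have several, it was 0.490%. This motif contains the 2-unit form GAANNTTC, which was found for 14 of the 57 genes (24.6%) against 8.21% of all genes. The element of the endoplasmic reticulum stress response, CCAAT and CCACG with any 9 bases between them on either strand, was found in a window of HSPA5 and of no other gene of the set, against 0.0916% of all genes. A match describes the letters in the window and is no evidence of binding in these cells. The windows below are shown because their genes carry these elements and differed in their ratios on the arrays, with the 3-unit heat shock elements (for HSPA5 the stress element) in capitals.
HSP90AA1 (chr14:102086995-102087294, minus strand): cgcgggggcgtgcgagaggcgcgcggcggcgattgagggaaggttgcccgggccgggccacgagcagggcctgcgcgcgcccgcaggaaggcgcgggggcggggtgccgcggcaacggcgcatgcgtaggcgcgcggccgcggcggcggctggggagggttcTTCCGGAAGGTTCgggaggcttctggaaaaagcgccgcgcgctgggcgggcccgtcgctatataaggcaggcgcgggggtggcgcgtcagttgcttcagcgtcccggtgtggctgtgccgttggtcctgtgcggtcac
HSP90AB1 (chr6:44247693-44247992, plus strand): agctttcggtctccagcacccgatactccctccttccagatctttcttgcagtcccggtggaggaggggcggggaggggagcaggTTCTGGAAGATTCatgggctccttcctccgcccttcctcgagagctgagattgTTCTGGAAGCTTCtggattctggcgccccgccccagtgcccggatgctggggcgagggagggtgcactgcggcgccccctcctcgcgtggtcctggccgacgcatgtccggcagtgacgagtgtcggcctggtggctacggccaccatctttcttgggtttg
DNAJA1 (chr9:33025023-33025322, plus strand): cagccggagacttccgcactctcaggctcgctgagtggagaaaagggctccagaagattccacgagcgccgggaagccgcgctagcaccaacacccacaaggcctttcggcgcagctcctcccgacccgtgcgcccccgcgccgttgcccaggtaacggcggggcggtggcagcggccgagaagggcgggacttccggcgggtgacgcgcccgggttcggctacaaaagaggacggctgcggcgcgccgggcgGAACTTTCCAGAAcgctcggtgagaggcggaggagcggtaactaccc
HSPA8 (chr11:123062087-123062386, minus strand): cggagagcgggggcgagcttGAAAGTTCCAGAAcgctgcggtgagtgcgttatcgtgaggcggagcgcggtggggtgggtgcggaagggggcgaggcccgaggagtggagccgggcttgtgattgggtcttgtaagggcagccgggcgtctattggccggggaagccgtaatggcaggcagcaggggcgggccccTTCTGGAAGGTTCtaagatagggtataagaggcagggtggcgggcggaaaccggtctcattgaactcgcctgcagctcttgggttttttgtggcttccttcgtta
HSPA5 (chr9:125241294-125241593, minus strand): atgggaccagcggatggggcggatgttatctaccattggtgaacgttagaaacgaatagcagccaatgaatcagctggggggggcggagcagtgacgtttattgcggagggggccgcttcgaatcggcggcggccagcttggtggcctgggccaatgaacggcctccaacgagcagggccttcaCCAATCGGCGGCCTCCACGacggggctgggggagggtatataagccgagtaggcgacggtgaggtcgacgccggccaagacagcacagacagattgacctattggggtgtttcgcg
With the start base counted as 0, the element of HSP90AA1 ran from -88 to -76, that of DNAJA1 from 3 to 15 and that of HSPA5 from -66 to -48. The windows of HSP90AB1 and HSPA8 each held 2 elements, within -165 to -100 and -230 to -43. HSP90AA1 and HSP90AB1 have other start sites in the table, whose windows held no 3-unit element.

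The arrays had median intensities of 39 (ncRNA) and 36 (miR-210). Differences are log2 ratios (miR-210 over ncRNA) of quantile normalised values, a step that gives both arrays the same distribution of values. A gene entered the comparison if a probe's log2 level, averaged over the arrays, was at or above the overall probe median, which corresponds to 37.5. This level filter passed 6681 genes in all and 49 of the 66 chaperone genes. The only error available is that between several probes for a gene, which gave a SD of 0.44 for the log2 ratio of a probe around its gene over 251 genes. FGFRL1, the miR-210 target the study is known for, read 277 with ncRNA and 21 with miR-210, the latter below the filter level, so that the size of its ratio cannot be interpreted. Of the squamous epithelial markers 3 of the 4 on the array passed the filter (KRT5, KRT14 and CDH1, with TP63 below it), against 1 of 4 fibroblast markers (DCN), 1 of 3 endothelial markers (VWF) and 0 of 3 leukocyte markers. The summed intensities of these lists were 787 and 991, 234 and 228, 178 and 168, and 41 and 50 on the ncRNA and miR-210 arrays. Their part in the results below was not tested.

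Chaperone genes were more often higher than lower on the miR-210 array. Of the 49 genes, 36 had a log2 ratio above 0 (73.5%), where 50.8% of all genes that passed the filter did. Their median was 0.24, against 0.008 over all 6681 genes, and their SD was 0.43 against 0.54. RNA came from whole cultures, so fewer cells expressing a gene and less RNA per cell cannot be told apart. A ratio of at least 1.5-fold in the higher direction was found for 10 of the 49 (20.4%), against a background of 11.9% of all genes. In the lower direction there was 1 (2.04%), against 10.9%. At 2-fold there were 3 higher and 0 lower, against 3.02% and 3.17% of all genes. The 10 higher genes were the Hsp90 probes named HSPCA and HSP90AA2P, the J proteins DNAJB9, DNAJA3 and DNAJA2, the Hsp110 genes HSPA4 and HSPH1, the Hsp70 gene HSPA14, and the CCT subunits CCT4 and CCT7, and the lower gene was HSPA2.

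The size of the shift depends on how the arrays are scaled, because on the deposited scale the median of all genes lay at -0.12. There the chaperone median was 0.11, still 0.23 above that of all genes as it was after normalisation, and 29 of 49 genes (59.2%) were above 0 against 39.7% of all. The 1.5-fold counts on that scale were 5 higher (10.2%, background 7.94%) and 1 lower (2.04%, background 15.5%). The 5 were HSPCA, DNAJB9, DNAJA3, HSP90AA2P and DNAJA2. Over quantile, median-centred, loess and unscaled values, 29 of the 49 genes were above 0 each time and 13 below 0 each time. The other 7 were above 0 after quantile normalisation and below it on the deposited scale: HSPD1, CCT2, TCP1, HSPA13, HSF2, DNAJC9 and DNAJC13. With the filter at the 75th percentile, 38 chaperone genes gave a median of 0.35 and 28 were above 0 (73.7%, against 50.7% of the genes left). At 1.5-fold, 10 of the 38 were higher and 0 lower, against 10.6% and 9.37%. Without a level filter, 17 of the 66 genes were at least that much higher (25.8%) and 2 lower (3.03%), against 17.2% and 15.7% of 12405 genes. In relation to the spread between probes, 17 of the 49 lay more than 0.44 above 0 and 2 more than 0.44 below it, where 17.9% and 16.8% of all genes did.

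**Figure D1:**
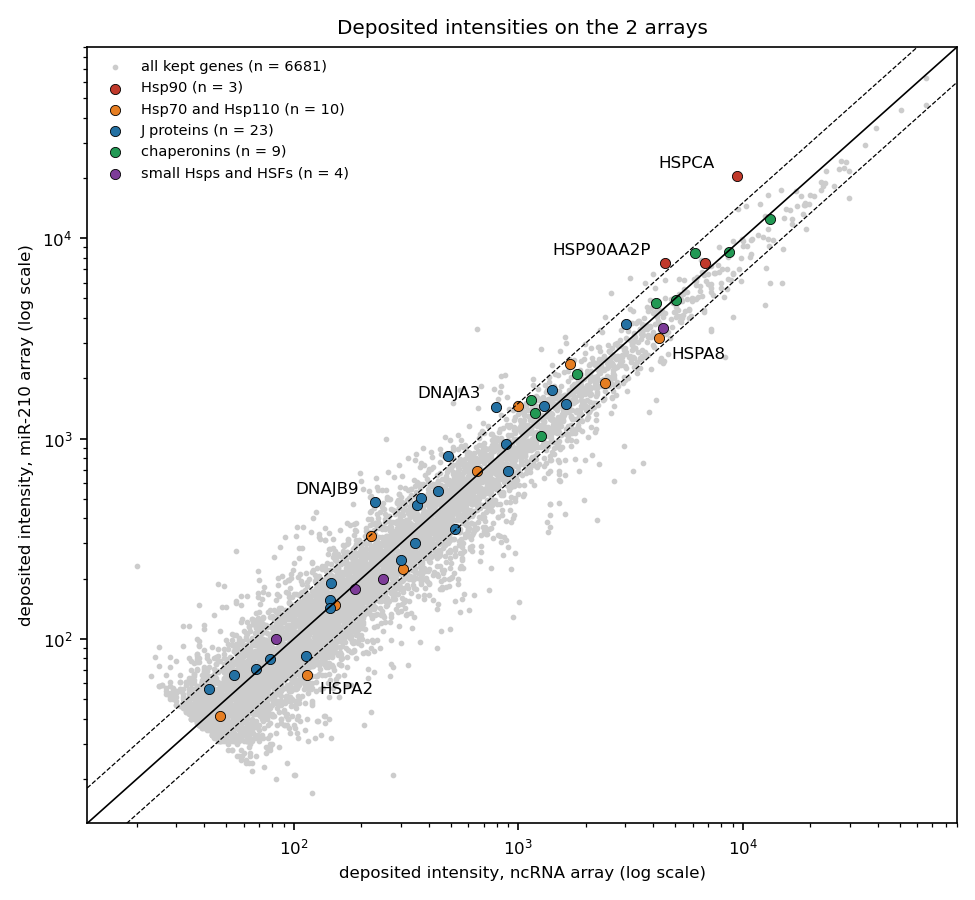
Deposited intensity on the ncRNA array (x axis) and the miR-210 array (y axis), both on log scales, for the 6681 genes that passed the filter (grey) and the 49 chaperone genes (coloured by family). The solid line marks equal intensity and the dashed lines a 1.5-fold difference. Among the 49 chaperone genes HSPCA lies highest above the line, with 9472 and 20408, and HSPA2 (114 and 66) lies below it.

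**Figure D2:**
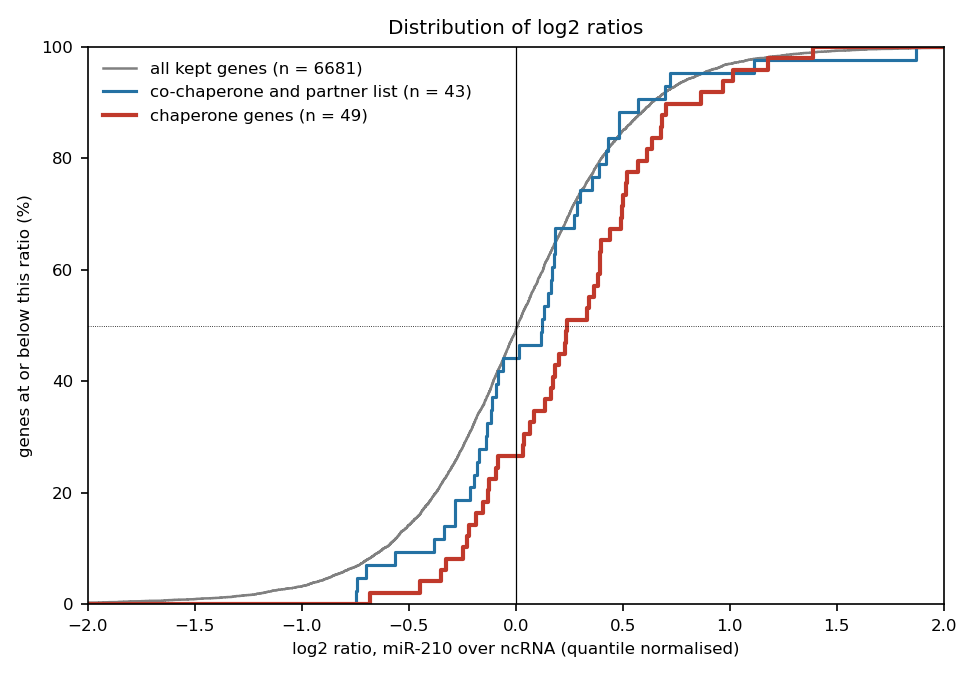
Cumulative share of genes (y axis, %) at or below a given miR-210/ncRNA log2 ratio (x axis) for all 6681 genes, the 43 co-chaperone and partner genes and the 49 chaperone genes. The chaperone curve lies to the right of the others around its median of 0.24, and the partner list crosses the midline at 0.12.

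An Hsp90 probe gave the highest ratio of the 49 genes that passed the filter. The probe named HSPCA, an older name of HSP90AA1, the stress-inducible cytosolic Hsp90, read 9472 with ncRNA and 20408 with miR-210. That is 2.62-fold higher after normalisation (log2 ratio 1.39), rank 65 of 6681 from the highest, and a log2 ratio of 1.11 on the deposited scale. The probe of HSP90AA2P, a processed copy of the same gene, read 4481 and 7514, a log2 ratio of 0.97. RefSeq lists the name HSPCA for both HSP90AA1 and HSP90AA2P, and near-identical sequences can hybridise to each other's probes, so these are not independent measurements of separate genes. Without both, the other 47 genes had a median of 0.24, with 8 of the 47 at least 1.5-fold higher, against 11.9% of all genes.

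HSP90AB1, the constitutive cytosolic Hsp90, was measured by a pair of probes. The brighter read 6805 and 7537, a log2 ratio of 0.39, and the other 3458 and 3439, a ratio of 0.19 that becomes -0.008 on the deposited scale. Both were smaller than the ratio of HSPCA, and both lay within the spread between probes of 0. A probe with the older name TRA1, which RefSeq lists for the endoplasmic reticulum Hsp90 gene HSP90B1 and for PLSCR4, read 1491 and 1715, a log2 ratio of 0.38. It was not counted as a chaperone gene because PLSCR4 is not in the set, whereas both genes listed for HSPCA are.

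Among Hsp70 proteins the ratios ran both ways. HSPA8, the constitutive Hsp70 of the cytosol, was lower on the miR-210 array, from 4229 to 3171 (log2 ratio -0.22). HSPA2, a relative known for its role in the testis, read 114 and 66, 1.6-fold lower and the lowest ratio of the 49 (-0.68). HSPA14, an Hsp70 that works at the ribosome, was 1.61-fold higher, from 220 to 328. Its ribosomal J protein partner DNAJC2 stood at 0.33 (1303 and 1453). The stress-inducible genes HSPA1A and HSPA1B, and the HSPD1 partner HSPE1, are not analysed here.

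The Hsp70 proteins of the organelles lay near or below 0. HSPA5, the Hsp70 of the endoplasmic reticulum also called BiP, read 305 and 224 (-0.32). HSPA9, the mitochondrial Hsp70, read 2426 and 1886 (-0.19). HSPA13, a microsomal relative, stood at 0.07 after normalisation and -0.048 on the deposited scale, and the divergent HSPA12B at -0.09, and none of these 4 differed from 0 by more than the spread between probes. The median of the 4 was -0.14.

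The Hsp110 genes, whose proteins exchange the nucleotide of Hsp70, were all above 0 after quantile normalisation, median centring and loess, and on the deposited scale. Each has a single probe, so a change of level filter or averaging over probes could not move its value. HSPA4 read 1002 and 1449, 1.63-fold higher (0.70). HSPH1, which is induced by heat, read 1697 and 2350, 1.56-fold higher (0.64). HSPA4L was closer to 0, at 0.20 (653 and 690). On the deposited scale HSPA4 and HSPH1 stood at 0.53 and 0.47, under the 1.5-fold limit of 0.58.

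**Figure D3:**
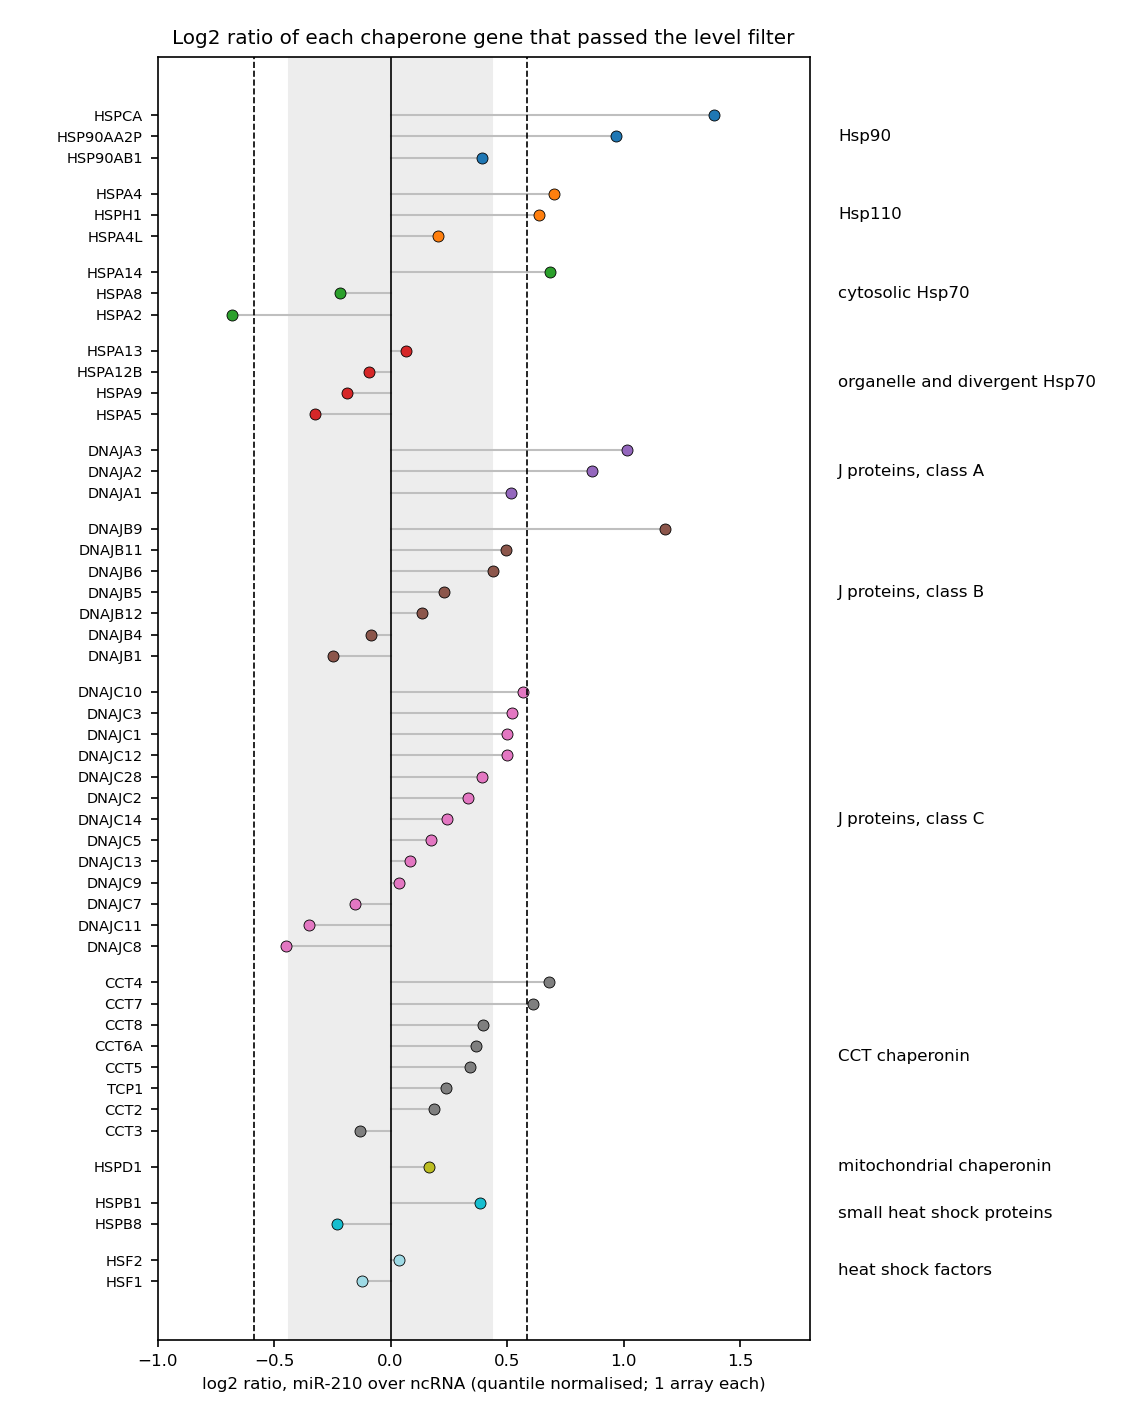
The miR-210/ncRNA log2 ratio (x axis) after quantile normalisation for each of the 49 chaperone genes that passed the filter, grouped by family, with 1 array per group. The dashed lines mark 1.5-fold and the grey band is 0.44 to each side of 0, the spread between probes. The Hsp110 and class A J protein genes lie right of 0 and 3 of the 4 organelle and divergent Hsp70 genes left of it.

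J proteins made up 23 of the 49 genes, and 18 of them were above 0 (78.3%, against 50.8% of all genes), with a median of 0.33. Class A proteins resemble the bacterial DnaJ throughout and stood highest of the classes, with a median of 0.87 over 3 genes. DNAJA3, the mitochondrial member, read 796 and 1442, 2.02-fold higher. DNAJA2 read 488 and 815, 1.82-fold higher, and DNAJA1, a farnesylated partner of HSPA8, read 3009 and 3727, a log2 ratio of 0.52. The 3 genes kept this direction on the deposited scale, at 0.86, 0.74 and 0.31, where DNAJA3 was below 2-fold.

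Class B J proteins, which lack the zinc finger of class A, had a median of 0.23 over 7 genes. DNAJB9, an endoplasmic reticulum protein that binds HSPA5, read 229 and 480, 2.26-fold higher and rank 125 of 6681 from the highest. DNAJB6, a suppressor of protein aggregation, stood at 0.44 (437 and 547). DNAJB1, the classical heat-inducible Hsp40 of the cytosol, went the other way, from 897 to 687 (-0.25), and its relatives DNAJB4 and DNAJB5 stood at -0.08 and 0.23. DNAJB12, of the endoplasmic reticulum membrane, stood at 0.14 (78 and 79).

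Class C J proteins share little beyond the J domain and often serve a single process. Their 13 genes had a median of 0.24, with 10 of them above 0 (76.9%, against 50.8% of all genes). On the deposited scale 8 were above 0 (61.5%, against 39.7% of all genes). After quantile normalisation no gene reached 1.5-fold in either direction, where 11.9% (higher) and 10.9% (lower) of all genes did. The highest was DNAJC10 at 0.57, just short of 1.5-fold, and the lowest was DNAJC8, a protein of the spliceosome, at -0.45 (522 and 353). DNAJC12, a co-chaperone of the aromatic amino acid hydroxylases, stood at 0.50. DNAJC11, of the mitochondrial membrane, stood at -0.35 and DNAJC7, which binds both Hsp70 and Hsp90, at -0.15. DNAJC28, DNAJC5, the cysteine string protein of secretory vesicles, and DNAJC13, an endosomal protein, stood at 0.39, 0.17 and 0.08, the last turning to -0.03 on the deposited scale.

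The J proteins of class C with several probes show how far a ratio depends on the probe. DNAJC14 had 3 probes with intensities of 885 and 944, 176 and 155, and 87 and 78, and log2 ratios of 0.24, -0.07 and -0.04. The brightest, used for the gene, was thus the single probe above 0. Its 0.24 was also the class C median, which fell to 0.17 with the mean over the probes of each gene. DNAJC9, a histone chaperone, had a pair of probes with like ratios, 0.03 (1627 and 1480) and 0.05 (379 and 361), both below 0 on the deposited scale.

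In the endoplasmic reticulum, HSPA5 and its J protein partners stood on opposite sides of 0. After quantile normalisation HSPA5 (-0.32) lay within the spread between probes, 0.44, of 0. Beside DNAJB9, DNAJB11 read 1411 and 1747 (0.49), DNAJC1 355 and 468 (0.50), DNAJC10, a disulphide reductase, 368 and 506 (0.57), and DNAJC3, also known as an inhibitor of the kinase PERK and its relatives, 42 and 56 (0.52). All 5 of these J proteins were above 0 after quantile normalisation and on the deposited scale, where the lowest, DNAJB11, stood at 0.31, while HSPA5 stood at -0.45 there. DNAJB11, DNAJC1 and DNAJC3 lay within the spread between probes of 0 on the deposited scale. DNAJB9 was the single one of the 5 to reach 1.5-fold, and DNAJC3 lay close to the filter level. The list of 8 endoplasmic reticulum genes, drawn up with earlier results of these data known, had a median of 0.50 over the 7 measured. The median over all 6681 genes was 0.008. Of the 7 genes, 5 are the J proteins above, so the list median largely restates their values. DNAJB12 (0.14), HYOU1 and SDF2L1 were not on the list. HYOU1, the large Hsp70 relative that exchanges the nucleotide of HSPA5, read 53 and 69 (0.48). SDF2L1, a partner of DNAJB11, was 1.68-fold lower, from 880 to 480 (-0.75).

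The CCT chaperonin is a double ring of TCP1 and its paralogues that folds actin and tubulin. Of its 8 subunit genes that passed the filter 7 were above 0 (87.5%, against 50.8% of all genes). Their median was 0.35, with a range from -0.13 to 0.68. On the deposited scale 5 were above 0 (62.5%, against 39.7% of all genes), with a median of 0.18. CCT4 read 6127 and 8406, 1.6-fold higher, and CCT7 1142 and 1562, 1.53-fold higher. CCT8 (4119 and 4747), CCT6A (1835 and 2090) and CCT5 (1181 and 1338) stood at 0.40, 0.36 and 0.34. TCP1 (8656 and 8570) and CCT2 (5015 and 4906) stood at 0.24 and 0.18, but at -0.014 and -0.03 on the deposited scale. CCT3 was the single subunit below 0 under both scalings, from 1263 to 1035 (-0.13). The ratios of the subunit genes of this equimolar complex thus differed by up to 0.81 on the log2 scale. Their SD was 0.25, smaller than the spread between probes, 0.44, so no difference between subunits can be read from them.

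HSPD1, the mitochondrial Hsp60, read 13189 and 12402, which is 0.16 after normalisation and -0.09 on the deposited scale. No direction can be given for it. Small heat shock proteins hold unfolded proteins without ATP, and 2 of the 6 measured passed the filter. HSPB1, also called Hsp27, read 83 and 100 (0.39), and HSPB8 read 250 and 198 (-0.23). BAG3, the co-chaperone that works with HSPB8, read 1730 and 1258 (-0.29).

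The heat shock factors lay close to 0. HSF1, the main regulator of the heat shock response, read 4423 and 3558 (-0.12), and HSF2 read 188 and 178 (0.04, and -0.08 on the deposited scale). HSBP1, a small protein that binds HSF1 and holds back its activity, was 1.68-fold lower, from 635 to 352 (-0.74). The 6 genes whose windows hold the 3-unit heat shock element had log2 ratios of 1.39 (HSPCA, as HSP90AA1), 0.52 (DNAJA1), 0.44 (DNAJB6), 0.39 (HSP90AB1), 0.16 (HSPD1) and -0.22 (HSPA8). The genes with this element thus included the highest ratio of the 49 and a ratio below 0.

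**Figure D4:**
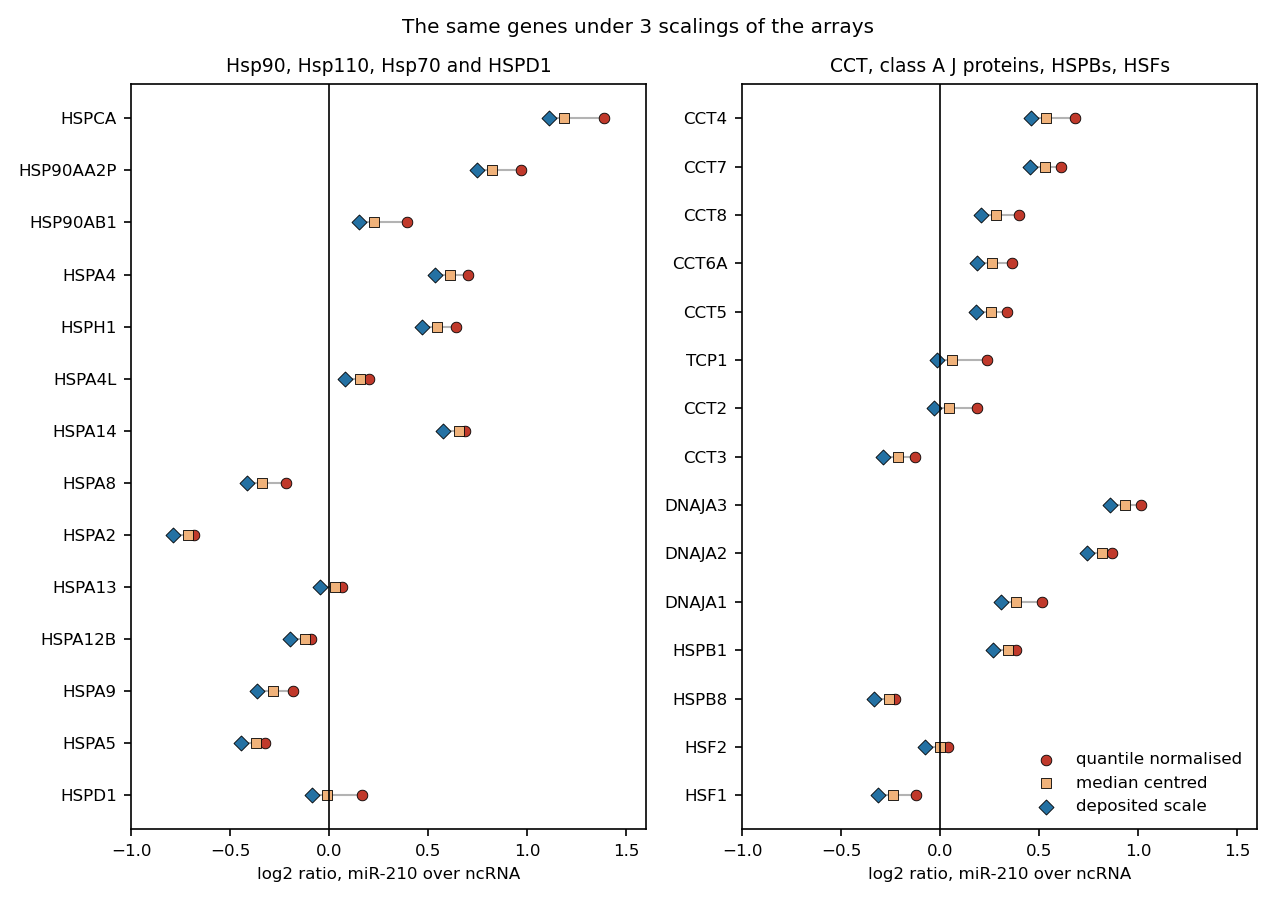
The miR-210/ncRNA log2 ratio (x axis) for 29 chaperone genes, each with the value after quantile normalisation (circle), median centring (square) and on the deposited scale (diamond). The 3 values shift together. HSPD1, TCP1, CCT2, HSPA13 and HSF2 cross 0 between the scalings, while HSPCA stays between 1.11 and 1.39.

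Partners outside the set were taken from a list of 56 co-chaperones, prefoldin subunits and other helpers, drawn up with earlier results of these data known. Of the 56, 45 were on the array and 43 passed the filter. Of these 24 were above 0 (55.8%, against 50.8% of all genes), with a median of 0.12, and the median turned to -0.055 on the deposited scale. At 1.5-fold or more, 4 were higher and 3 lower, or 9.30% and 6.98% against the background of 11.9% and 10.9%. SGTB, a tetratricopeptide repeat protein that binds Hsp70, had the highest ratio, from 34 to 116 (1.87), but its ncRNA value was below the filter level. SEC63, a J domain protein of the endoplasmic reticulum translocon, was 2.16-fold higher (497 and 987). PPID, a cyclophilin that binds Hsp90, was 1.65-fold higher (435 and 658), and BAG4, named after its value was seen because it completes the count, 1.62-fold higher (52 and 78). The third lower gene beside SDF2L1 and HSBP1 was ST13, the Hsp70-interacting protein, from 588 to 337 (-0.70). STIP1, which links Hsp70 to Hsp90, stood near 0 at 0.18 (842 and 866).

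The other 17 chaperone genes were below the level filter, with intensities between 3 and 45 on either array. They were CCT6B, DNAJA4, DNAJB2, DNAJB8, DNAJC4, DNAJC5B, DNAJC5G, DNAJC6, DNAJC15, DNAJC30, HSPA7, HSPA12A, HSPB2, HSPB3, HSPB6, HSPB9 and HSPBAP1, the last of which entered by its symbol and encodes a protein that binds HSPB1. Several are known from testis, muscle or nerve rather than epithelium. Their log2 ratios ran from -1.54 (HSPB3, 39 and 13) to 2.36 (DNAJC15, 3 and 14), and at such intensities a ratio has no interpretable size.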

How the data were processed

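The authors deposited 1 intensity per probe, on a linear scale, for 24267 probes and 2 arrays. The unit was read from the values, which are whole numbers from -8 to 65496, and values below 0 require that a background was subtracted. The sources used here give no scanner, background correction or normalization. Groups came from the sample titles. From these intensities the log2 values of the 24177 probes above 0 on both arrays were quantile normalised (Python 3.11.15, pandas 2.3.3), and probes with a mean level under the median were left out. Of the probes, 13395 carry 1 platform symbol, none carries several and 10872 are unnamed here. Symbols were updated through unambiguous RefSeq synonyms (GRCh38.p14) for 2446 probes, and 127 probes kept a name that matched no current symbol. The probe with the highest mean level stood for a gene. Fold limits were 1.5 and 2. Alternatives were the deposited scale, median centring, loess on level, an offset of 10, other level filters and the mean over probes. The normalization was tested on simulated data with planted shifts, and the matching of motifs and symbols on set examples. The level filter, the choice of probe and the summaries were not simulated. Genes named were those at least 1.5-fold apart, those with several probes, a list of well-known members, and the 6 partner genes farthest from 0 with HYOU1, STIP1, BAG3 and HSBP1. The members and lists were chosen with earlier results of these data known. The number of arrays limits the precision.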

Additional observations from a re-analysis of the deposited data

How the results depend on the processing

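On the deposited scale the median log2 ratio of the chaperone genes was 0.11 and the count at least 1.5-fold higher 5, the CCT median was 0.18 and the class C J protein median 0.093. The partner list median there was -0.055, and its distance from the median of all genes was 0.063 in place of 0.12. Median centring put the partner list at 0.021. Filtering at the 75th percentile put the chaperone median at 0.35 with 0 genes at least 1.5-fold lower, the class B J protein median at 0.44, the cytosolic Hsp70 median at 0.23 (2 genes left), and the partner list at -0.022 with 2 genes at least 1.5-fold higher. Without a level filter 17 of 66 chaperone genes were at least 1.5-fold higher and 2 lower (25.8% and 3.03%, against 17.2% and 15.7% of all genes), and the small heat shock protein median was -0.36 over 6 genes, mostly dim. The other 117 summary values and all 373 single-gene values moved by less than the spread between probes (for a median, divided by the square root of the number of genes) or, for counts, by no more than 1.5 times. A change of level filter or averaging over probes cannot move the value of a gene with a single probe. Rescaling shifted genes together by less than this limit, HSPCA for example from 1.39 to 1.11, so the 373 values say little about single genes. Some genes, such as HSPD1 (0.16 and -0.09 on the deposited scale), changed sign within this limit. The division treats genes as independent, although a change of scaling shifts them together. Alternatives chosen after seeing the data were to count TRA1 as HSP90B1 (median 0.29) and to leave out the HSPCA and HSP90AA2P probes (median 0.24). In the latter, 8 of 47 genes were at least 1.5-fold higher, against 11.9% of all genes. No paired analysis was possible because each group has 1 array. Probe signal near background limits what the 17 dim genes can show.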

Other observations

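Of the 43 chaperone genes that passed the level filter and had a promoter window, the 6 with a 3-unit heat shock element had a median log2 ratio of 0.42 with 5 above 0, and the 37 without it a median of 0.23 with 27 above 0. With the 2-unit element the medians were 0.24 over 11 genes with it, 8 of them above 0, and 0.24 over 32 without it, 24 of them above 0. These medians are descriptions of 1 pair of arrays and were not tested. The 3 genes with the 2-unit element that lay below 0 were DNAJB1 (-0.25), HSPB8 (-0.23) and HSPA8 (-0.22).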
